A study of Ovis aries with 16 samples.

Results

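Visceral fat was compared with subcutaneous fat in the control ewes of a sheep (Ovis aries) RNA sequencing series, with 4 libraries from each depot. These 8 libraries are all the control libraries among the 16 of the series, and they were taken by their labels alone. The ewes were adult daughters of mothers that received daily corn oil injections between gestation days 30 and 90, with term at about 147 days. They had been weaned at about 8 weeks and kept on a corn and hay ration with a protein supplement that was meant to keep them from becoming obese. The labels name no breed or genotype. At about 21 months of age the cycle of every ewe was synchronized with a pair of injections of prostaglandin F2 alpha, and both fats were taken 24 hours after the later injection. The visceral fat was mesenteric fat from around the ventral rumen and the subcutaneous fat came from over the sternum, so each depot stands for 1 site. The visceral libraries carry the numbers 902, 908, 924 and 928 and the subcutaneous ones 902, 924, 928 and 931. The number is taken as the animal, which gives 3 ewes with both depots. The other 8 libraries, from daughters of mothers given 0.5 mg/kg/day of bisphenol A (BPA), served only for the comparison at the end.

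White fat forms in separate depots whose precursor cells come from different parts of the embryo. Fat cells and their precursors keep the transcription factors of the body region where they arose, among them HOX, Iroquois and T-box genes. Visceral fat around the gut is covered by mesothelium, a thin epithelial sheet, while subcutaneous fat lies in the connective tissue of the body wall. The depots are also known to differ in their response to catecholamines, which release fatty acids from stored triglyceride through beta-adrenergic receptors and hold them back through alpha-2 receptors.

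Depth was fully confounded with depot. Total counts ran from 11.0 to 13.1 M in the visceral libraries and from 4.74 to 6.22 M in the subcutaneous ones (11.9 ± 0.886 against 5.61 ± 0.729 M, SD, n = 4 each; exact permutation test, two-sided, p = 0.0286, which is the lowest p this design can give, and 0.0858 after Benjamini-Hochberg adjustment over 15 library measures). On the first principal component, with 44.4% of the variance, visceral libraries lay from -49.6 to -29.9 and subcutaneous ones from 31.9 to 58.7. Adipocyte markers were high in both depots, with sums from 19250 to 27373 CPM (counts per M counts of the scaled library total) in visceral and from 9965 to 19710 CPM in subcutaneous libraries. Epithelial markers of skin and rumen summed to at most 2.31 CPM in every library. All 8 mesothelial markers were in the table and summed to 60.3 to 131 CPM in visceral and 4.30 to 8.94 CPM in subcutaneous libraries. The 5 skeletal muscle markers found summed to 6.58 to 14.98 and 28.5 to 72.5 CPM. Nearly all of that sum was TNNT3, while CKM, the creatine kinase of muscle, had 0 counts in every library. In tissue libraries such as these, fewer cells of a type and less RNA per cell cannot be told apart.

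Between the depots, 1928 of 14456 genes tested changed (13.3%; edgeR quasi-likelihood test, Benjamini-Hochberg adjusted p under 0.05). Of these, 1037 were higher in visceral fat (7.17% of genes tested) and 891 lower (6.16%). Log2 fold changes below are visceral over subcutaneous and carry their standard error (SE). Their median was -0.01 over all genes tested, and the median size was 0.95 among the genes called. A fold of at least 2 was reached by 893 called genes, 420 of them higher and 473 lower, and a fold of at least 8 by 111, 49 higher and 62 lower. In 1740 of the 1928 called genes every visceral library lay on one side of every subcutaneous library, while 2858 of all genes tested (19.8%) had no such overlap. The call count was 1043 without visceral 928, 1215 without visceral 908, 1239 without subcutaneous 924 and 1245 without visceral 902. The main test had no block on the animal. With animals as a block in limma voom the call count was 3522, of which 1818 were higher. After all libraries were thinned to the lowest total, 1751 genes were called and 1606 of the 1928 were among them.

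**Figure D1:**
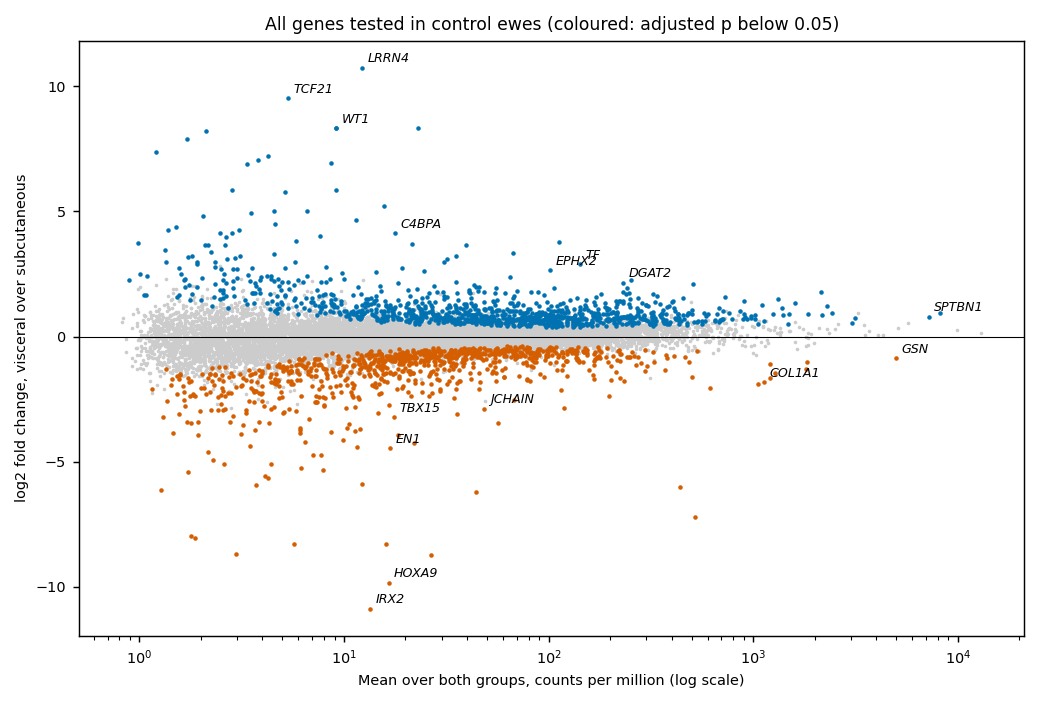
Log2 fold change of visceral over subcutaneous fat (vertical axis) against the mean of both groups in CPM (horizontal axis, log scale) for the 14456 genes tested in control ewes. Blue points are the 1037 genes called higher and orange points the 891 called lower in visceral fat, grey points are the rest, and named points lie at both edges of the cloud.

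Genes that specify position in the embryo were among those with the widest differences. All 4 Iroquois homeobox genes tested were lower in visceral fat, with a median log2 fold change of -6.27. Of 25 factors of limb and body wall patterning 14 were lower and 2 higher, with a median of -0.99 (-1.52 without visceral 928) beside -0.01 over all genes. In visceral fat 11 of 20 factors of visceral mesoderm and gut mesenchyme were higher and 3 lower, with a median of 0.71.

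IRX1 and IRX2 are neighbouring Iroquois transcription factors on chromosome 16, at 75768720 to 75774154 and 76558685 to 76564158 in the coordinates of the deposited table. IRX1 was at 0, 0.477, 0 and 0 CPM in visceral libraries 902, 908, 924 and 928 and at 30.8, 68.8, 57.9 and 54.2 CPM in subcutaneous libraries 902, 924, 928 and 931, the order kept from here on. It was thus near 0 in every visceral library and high in every subcutaneous one, with a log2 fold change of -8.73 ± 0.59 (adjusted p = 1.78e-05). IRX2 had 0 counts in all 4 visceral libraries and 11.3, 35.1, 37.8 and 23.5 CPM in the subcutaneous ones, which makes it at least 408-fold lower against a floor of 3 counts over the group (adjusted p = 0.00027). The Iroquois pair on chromosome 14 differed less. IRX3 had 2.50, 4.48, 10.2 and 10.5 against 30.8, 28.5, 39.3 and 19.4 CPM (log2 -2.09 ± 0.40, adjusted p = 0.00837) and IRX5 had 0.624, 0.858, 0.945 and 2.06 against 21.6, 13.8, 16.5 and 12.5 CPM (log2 -3.82 ± 0.37, adjusted p = 0.00023). Both stayed detectable in visceral fat, and neither overlapped between the depots.

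HOX genes are arranged in 4 clusters, and their number along the cluster follows the head-to-tail order in which they act in the embryo. Those with the numbers 6 to 10 were lower in visceral fat in 8 of 13 cases and higher in 0, with a median log2 fold change of -1.25. Those with the numbers 1 to 5 were lower in 0 of 10 and higher in 1, HOXB2 (log2 0.92 ± 0.21, adjusted p = 0.0174), with a median of 0.38 (0.19 without visceral 924 and 0.22 without subcutaneous 928). The 9 genes numbered 11 to 13 had at most 4 counts in a group and were not tested. The posterior genes that fell lay in the HOXA, HOXC and HOXD clusters, whereas the HOXB genes from HOXB5 to HOXB9 had log2 fold changes from -0.25 to 0.32 and 0 of 5 passed. HOXB6 was the most abundant HOX gene by count and stood at 92.4 CPM in visceral and 95.9 CPM in subcutaneous fat (group means; adjusted p = 0.961). Its visceral mean rested on 924, at 166 CPM beside 60.4 to 75.8 CPM in the others, and within the 3 ewes with both depots it was called higher (log2 0.78, adjusted p = 0.0309).

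Within the HOXA cluster on chromosome 4 neighbouring genes differed in their change. HOXA9 (75755163 to 75762202) had 1 count in the 4 visceral libraries together and 32.8, 42.03, 35.2 and 22.1 CPM in the subcutaneous ones. The ratio of summed counts, scaled to library totals, was 1525 (95% counting interval 273 to 60303; adjusted p = 2.2e-06). HOXA10, 1148 bases away, had 0 counts in visceral and 12.2, 3.46, 5.03 and 3.07 CPM in subcutaneous fat, at least 94.2-fold apart against the floor of 3 counts. HOXA7, the next gene on the other side, had 15.9 against 20.4 CPM and was not called (log2 -0.36, adjusted p = 0.346), while HOXA6 was lower in visceral fat (10.4 ± 1.69 against 37.5 ± 12.1 CPM, SD, n = 4; log2 -1.85 ± 0.23). HOXA5 overlaps HOXA6 on the same strand in the table and had 7 and 6 counts. Reads of the overlap cannot be told apart, so the level of HOXA5 is uncertain and that of HOXA6 may be affected too. HOXC8 had 1.96, 3.24, 4.98 and 5.18 against 18.2, 18.9, 11.8 and 22.5 CPM and HOXC9 had 1.34, 0.953, 1.46 and 2.38 against 24.5, 18.7, 19.3 and 22.5 CPM. Neither HOXC gene overlapped between the depots (log2 -2.20 ± 0.32 and -3.77 ± 0.28, adjusted p = 0.00213 and 3.52e-05). HOXC10 had 0 counts in visceral and 36 in subcutaneous fat and was not tested. HOXD8 was lower by -1.90 ± 0.21 on the log2 scale, and HOXD9 by -1.25 ± 0.29, a call lost without visceral 928 or subcutaneous 928 (adjusted p = 0.0548 and 0.0542) and after thinning to the lowest total (0.0759). The non-coding gene LOC105614720 overlaps HOXC9 on the opposite strand and went with it (0.888 ± 0.314 against 11.3 ± 0.634 CPM, log2 -3.64 ± 0.30). The labels do not say whether strand was used in counting, so reads of the pair cannot be told apart.

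**Figure D2:**
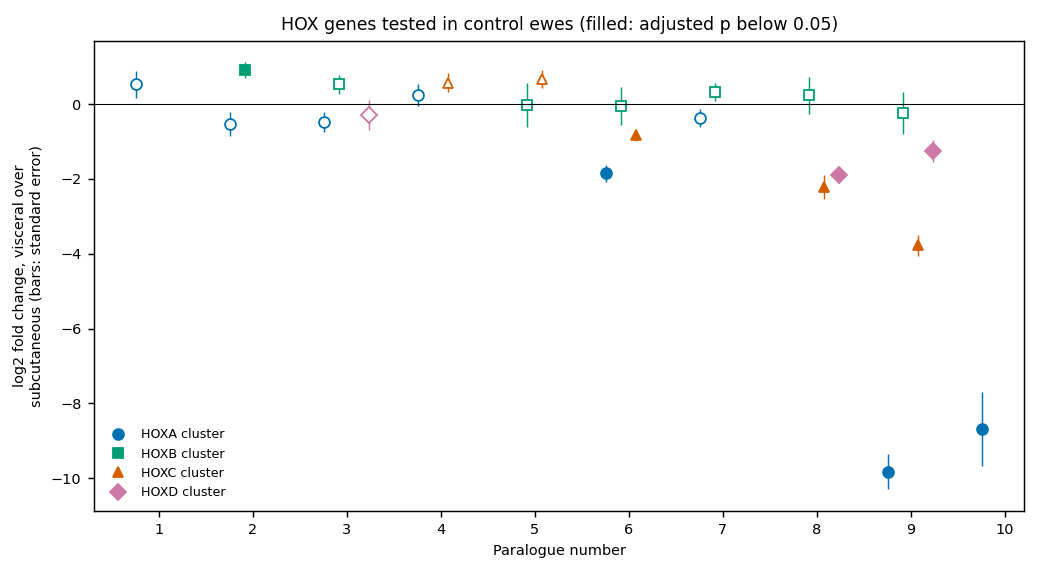
Log2 fold change of visceral over subcutaneous fat (vertical axis, bars are SE) for the HOX genes tested in control ewes, by paralogue number (horizontal axis) and cluster (colour and shape), with filled symbols for adjusted p under 0.05. Genes numbered 1 to 5 and the whole HOXB cluster lie within 1 log2 unit of 0, and HOXA9 and HOXA10 lie lowest.

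Other transcription factors of the limbs and body wall were also high in sternal fat. TBX15, a T-box factor of body wall mesenchyme and subcutaneous fat cells, had 3.66, 3.91, 2.32 and 3.70 CPM in visceral and 29.4, 29.4, 38.004 and 30.1 CPM in subcutaneous libraries. EN1, the engrailed factor of ventral ectoderm and dermis, had 1.25, 0.667, 3.44 and 0.411 against 25.1, 29.1, 33.5 and 40.7 CPM. For both genes the lowest subcutaneous library was several times the highest visceral one (log2 -3.22 ± 0.21 and -4.46 ± 0.48, adjusted p = 1.38e-05 and 0.000466). PITX1, a determinant of hindlimb identity, was found with 1 count in visceral fat and at 14.5, 6.57, 15.2 and 9.21 CPM in subcutaneous fat. It was thus all but missing from visceral libraries (adjusted p = 3.89e-05). TWIST1, a regulator of mesenchyme, had 7.91 ± 2.10 against 31.04 ± 6.75 CPM (SD, n = 4; log2 -1.97). PRRX1, PRRX2, TWIST2, SHOX2, FOXP2, EYA1, EMX2 and TBX18 also fell. The TBX18 call was lost in 6 of the 8 omissions of a library (adjusted p up to 0.0805) and in the fit of all 16 libraries (0.144). MEOX2, a homeobox gene of mesoderm and vessels, was one of the 2 that rose (134 ± 10.2 against 74.1 ± 12.3 CPM, adjusted p = 0.00381), with DLX4.

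Transcription factors of the gut wall, spleen and coelomic lining showed the opposite. WT1, the Wilms tumour factor of mesothelium and its derivatives, had 18.8, 20.6, 19.5 and 14.3 CPM in visceral libraries and 0, 0, 0 and 0.205 CPM in subcutaneous ones. NKX3-2 and BARX1, homeobox genes of gut mesenchyme, had 15.4, 16.4, 22.9 and 18.003 against 0.154, 0, 0 and 0 CPM and 28.1, 32.98, 32.7 and 28.9 against 0.771, 0.692, 1.26 and 0.409 CPM. TCF21, a helix-loop-helix factor of visceral mesoderm and fat precursors, had 10.3, 9.15, 11.9 and 11.1 CPM in visceral fat and 0 counts in all 4 subcutaneous libraries. These 4 factors thus stood between 9.15 and 33.0 CPM in every visceral library and at or below 1.26 CPM in every subcutaneous one. The log2 fold changes were 8.32 ± 0.50 for WT1, 8.32 ± 0.49 for NKX3-2 and 5.23 ± 0.26 for BARX1, with adjusted p of 8.3e-06, 7.77e-06 and 2.2e-06. TCF21 was at least 83.7-fold higher against the floor of 3 counts (adjusted p = 0.000154). GATA5, a zinc finger factor of gut and heart, had 8.83 ± 3.83 against 0.271 ± 0.236 CPM (adjusted p = 0.000783). ALDH1A2, the enzyme that makes retinoic acid in the coelomic lining, had 54.5 ± 8.56 against 7.07 ± 3.44 CPM (SD, n = 4; log2 2.97 ± 0.30). MEIS1, MEIS2, HLX and RSPO1 also rose. The MEIS1 call was lost without visceral 902, 908 or 924 or subcutaneous 902, 924 or 928 (adjusted p up to 0.075). It was also lost after thinning (0.0606) and with all 16 libraries (0.076). The list held 3 genes that fell, the odd-skipped factors OSR1 and OSR2 and the growth factor BMP4 (log2 -0.82, -2.40 and -0.81). With all 16 libraries in the fit OSR1 and BMP4 were not called (adjusted p = 0.0535 and 0.0956).

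**Figure D3:**
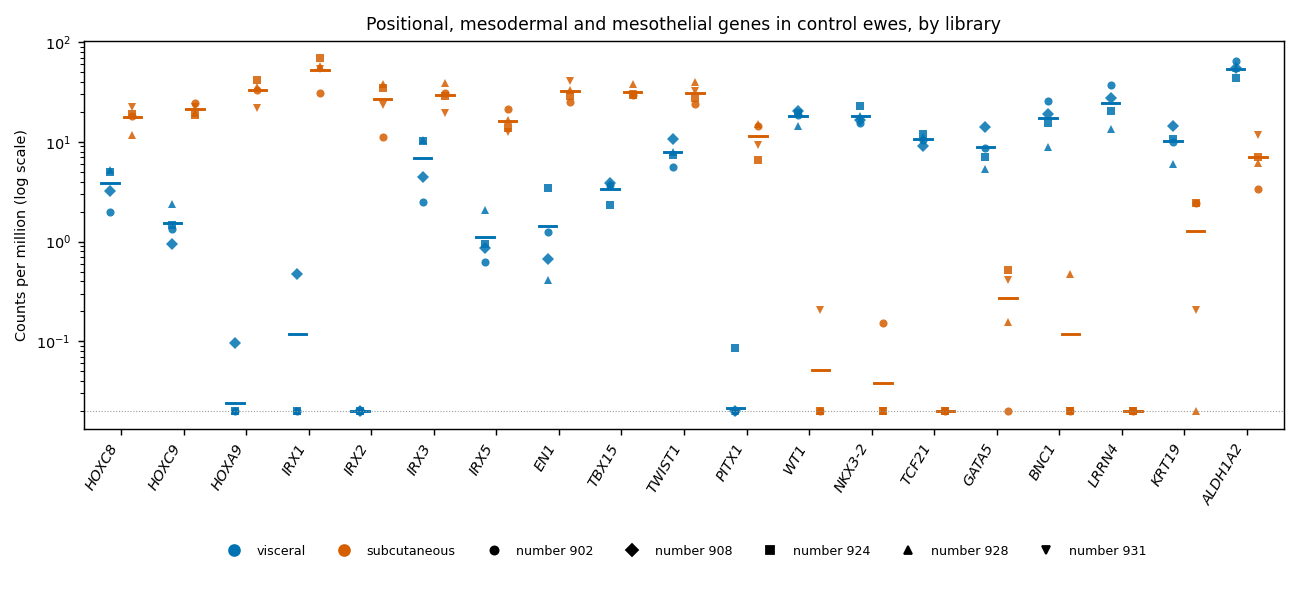
Expression in CPM (vertical axis, log scale) of 19 positional, mesodermal and mesothelial genes in each library of control ewes, with visceral fat in blue, subcutaneous fat in orange, a symbol for each animal number and a bar at the group mean. Values at or below 0.02 CPM are drawn on the dotted line, and the depots are separate in every gene shown, from HOXC8 to PITX1 lower and from WT1 to ALDH1A2 higher in visceral fat.

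Part of the mesothelial markers were higher in visceral fat too. Of 18 mesothelial markers tested, 9 were higher in visceral fat and 1 lower, with a median log2 fold change of 0.89. LRRN4, a surface protein of mesothelium, had 37.5, 27.3, 20.4 and 13.4 CPM in visceral libraries and 0 counts in the subcutaneous ones, at least 191-fold higher against the floor (adjusted p = 0.000274). BNC1, a zinc finger factor of epithelia, had 25.5, 18.97, 15.4 and 8.88 against 0, 0, 0.471 and 0 CPM, and UPK3B, a uroplakin of the mesothelial surface, 13.9, 7.53, 8.25 and 5.84 against 0.462, 0.346, 0.471 and 0.205 CPM. In LRRN4, BNC1 and UPK3B visceral 902 was highest and visceral 928 lowest. MSLN, which encodes mesothelin, had 4.28, 2.76, 3.35 and 0.986 CPM in visceral fat and at most 0.314 CPM in subcutaneous fat, and had too few counts to be tested. The keratin genes KRT8 and KRT19 had 16.8 ± 8.11 against 2.87 ± 1.27 and 10.3 ± 3.52 against 1.27 ± 1.35 CPM (SD, n = 4; adjusted p = 0.00334 and 0.0183; KRT19 0.0523 with all 16 libraries in the fit), and KRT23 had 4.23 ± 3.51 CPM against 0 counts. KRT18, the usual partner of KRT8, was at 1.07 to 2.23 CPM in visceral and 1.10 to 2.08 CPM in subcutaneous libraries (log2 0.24, adjusted p = 0.729).

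Junction proteins of epithelial sheets rose in part. Of 19 tested, 6 were higher and 3 lower, with a median of 0.40 (0.64 without subcutaneous 902). DSP, desmoplakin of the desmosome, had 129, 162, 119 and 76.7 CPM in visceral and 14.5, 9.51, 11.2 and 12.9 CPM in subcutaneous libraries. CGN, cingulin of tight junctions, had 90.1, 53.3, 74.1 and 37.2 against 8.79, 7.27, 5.50 and 5.32 CPM. Both were lowest in visceral 928 among the visceral libraries, as were the mesothelial markers, and both were above every subcutaneous value (log2 3.34 ± 0.24 and 3.24 ± 0.29, adjusted p = 2.73e-05 and 0.000164). The largest rise of a gene without a symbol was that of the protein-coding gene LOC101103644 on chromosome 5 (11416177 to 11517199). It had 50.5, 69.9, 34.1 and 30.1 CPM in visceral fat and 3 counts over the subcutaneous libraries (adjusted p = 7.77e-06).

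Of 32 adipocyte genes 12 were called higher in visceral fat and 0 lower, and 20 did not pass (median log2 0.59). PPARG, the master regulator of fat cell differentiation, had 228, 345, 206 and 285 CPM in visceral and 127, 143, 139 and 146 CPM in subcutaneous libraries. All visceral values were above all subcutaneous ones, a fold of 1.92 (log2 0.94 ± 0.17, adjusted p = 0.00567). ADIPOQ, which encodes adiponectin, had 11301, 11458, 7356 and 12884 against 6214, 3473, 7162 and 5325 CPM (log2 0.96 ± 0.25, adjusted p = 0.0286). Here visceral 924 was close to the highest subcutaneous library, and the call was lost without visceral 902, 908 or 928 or subcutaneous 924 or 931 (adjusted p up to 0.0857). LEP, which encodes leptin, had 692, 304, 622 and 427 against 557, 225, 155 and 188 CPM, overlapping groups (log2 0.86 ± 0.39, adjusted p = 0.167). Subcutaneous 902 was the high library in LEP, and without it the log2 fold change was 1.44 (adjusted p = 0.0113). Within the 3 ewes with both depots LEP was called (log2 1.08, adjusted p = 0.00956). ACVR1C, the activin-like receptor of mature fat cells, and TRARG1, a protein of glucose transporter vesicles, had 423 ± 48.6 against 177 ± 27.7 and 1941 ± 160.0 against 1048 ± 221 CPM (SD, n = 4; adjusted p = 0.000855 and 0.00795).

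Of 37 genes of lipid uptake and triglyceride assembly 13 were higher and 0 lower (median 0.36). LPL, lipoprotein lipase, which frees fatty acids from blood lipoproteins, had 885, 1463, 597 and 1417 against 332, 249, 379 and 491 CPM, and FABP5, a fatty acid carrier, 2519, 3329, 2344 and 5024 against 749, 538, 1203 and 1375 CPM. Neither overlapped, with folds of 3.01 and 3.42 (adjusted p = 0.00722 and 0.00693). GPAT3, which attaches the first acyl chain to glycerol phosphate, had 52.6, 66.6, 42.9 and 130.5 against 6.17, 4.32, 6.44 and 6.55 CPM, so that each visceral library was several times each subcutaneous one (log2 3.64 ± 0.36, adjusted p = 0.000231). The last step is made by DGAT2, with 424, 485, 155 and 451 against 113, 67.1, 136 and 23.7 CPM (log2 2.15 ± 0.48, adjusted p = 0.0158), and by DGAT1 (log2 0.66 ± 0.19, adjusted p = 0.0415). For DGAT2 the lowest visceral library, 924, lay just above the highest subcutaneous one, 928. The DGAT1 call was lost in 6 of the 8 omissions of a library (adjusted p up to 0.0966), with the 50-count filter (0.0528) and with all 16 libraries (0.0535). The acyltransferases AGPAT3, GPAT4 and GPAM had folds of 1.88, 1.98 and 2.86 (adjusted p = 0.00421, 0.00852 and 0.0232), and GPAM missed the threshold without visceral 908 or 928 or subcutaneous 924 (adjusted p up to 0.0705) and GPAT4 with all 16 libraries in the fit (0.0572).

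Fatty acid synthesis genes had 3 of 23 higher and 0 lower (near the 13.3% called over all genes, with 7.17% called higher). The 3 were PC, pyruvate carboxylase (52.8 ± 4.45 against 19.3 ± 6.85 CPM, SD, n = 4; log2 1.45 ± 0.21), ME1, malic enzyme (70.5 ± 11.7 against 32.3 ± 5.59 CPM; log2 1.12 ± 0.17) and MLXIPL, a carbohydrate-responsive regulator (adjusted p = 0.0895 with all 16 libraries). FASN, fatty acid synthase, had 526, 263, 519.7 and 862 CPM in visceral and 831, 691, 1278 and 393 CPM in subcutaneous libraries, and SCD, the desaturase that makes oleate, 575, 916, 419.9 and 743 against 1746, 855, 4649 and 299 CPM. The depots overlapped in both, subcutaneous 928 was highest and 931 lowest of the subcutaneous libraries, and neither was called (log2 -0.56 ± 0.37 and -1.51 ± 0.63, adjusted p = 0.345 and 0.139). Within the 3 ewes with both depots they were called lower in visceral fat (log2 -0.55 and -1.76, adjusted p = 0.023 and 0.00223), and SCD was called without subcutaneous 931 (log2 -1.86, adjusted p = 0.0327). Of 20 thermogenic genes 3 were higher and 0 lower, also near the share called over all genes. These were CPT1B, UCP2 and PRDM16, with calls that were lost in 5, 5 and 6 of the 8 omissions. PRDM16 was also lost after thinning, by limma voom without a block and within the 3 ewes with both depots (adjusted p = 0.0614, 0.0865 and 0.0559). UCP1, the uncoupling protein of brown fat, had 0 counts in all 8 libraries.

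Receptors that control lipolysis moved in both directions. Of 36 beta-adrenergic and lipolysis genes 11 were higher in visceral fat and 3 lower (median 0.31). ADRB1, the beta-1 receptor, had 57.7, 36.7, 59.4 and 76.3 against 8.79, 10.6, 10.4 and 21.3 CPM, and ADRB3, the beta-3 receptor typical of fat cells, 18.5, 11.4, 15.4 and 12.2 against 2.62, 0.519, 0 and 0.205 CPM. Neither overlapped (log2 2.19 ± 0.30 and 4.02 ± 0.65, adjusted p = 0.00151 and 0.00359), and subcutaneous 931 was the highest of its group in ADRB1. ADRA2A, the alpha-2A receptor that inhibits lipolysis, was lower in visceral fat, with 21.9, 5.81, 23.1 and 3.45 against 68.6, 64.2, 58.6 and 37.5 CPM. Its visceral values split into a higher pair, 902 and 924, and a lower pair, 908 and 928, all under the subcutaneous ones (log2 -2.08 ± 0.51, adjusted p = 0.0226; 0.0543 without visceral 908 and 0.0502 without subcutaneous 924). ADRA2B, another alpha-2 receptor, was called higher in visceral fat (log2 1.18), so the alpha-2 receptors did not move together. ADRA1A, the alpha-1A receptor, was higher (27.9 ± 3.91 against 12.2 ± 4.25 CPM, adjusted p = 0.0109). NPR1, the natriuretic peptide receptor that raises cyclic GMP, had 497, 579.6, 469.7 and 446 against 249, 172, 218 and 166 CPM (log2 1.31 ± 0.16, adjusted p = 0.000997). FFAR4, a receptor for long-chain fatty acids, and NPY1R, a neuropeptide Y receptor that holds back lipolysis, had 57.3 ± 27.6 against 6.70 ± 2.88 and 14.3 ± 10.3 against 2.02 ± 1.41 CPM (SD, n = 4; adjusted p = 0.00187 and 0.0134; NPY1R 0.0654 by limma voom without a block).

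**Figure D4:**
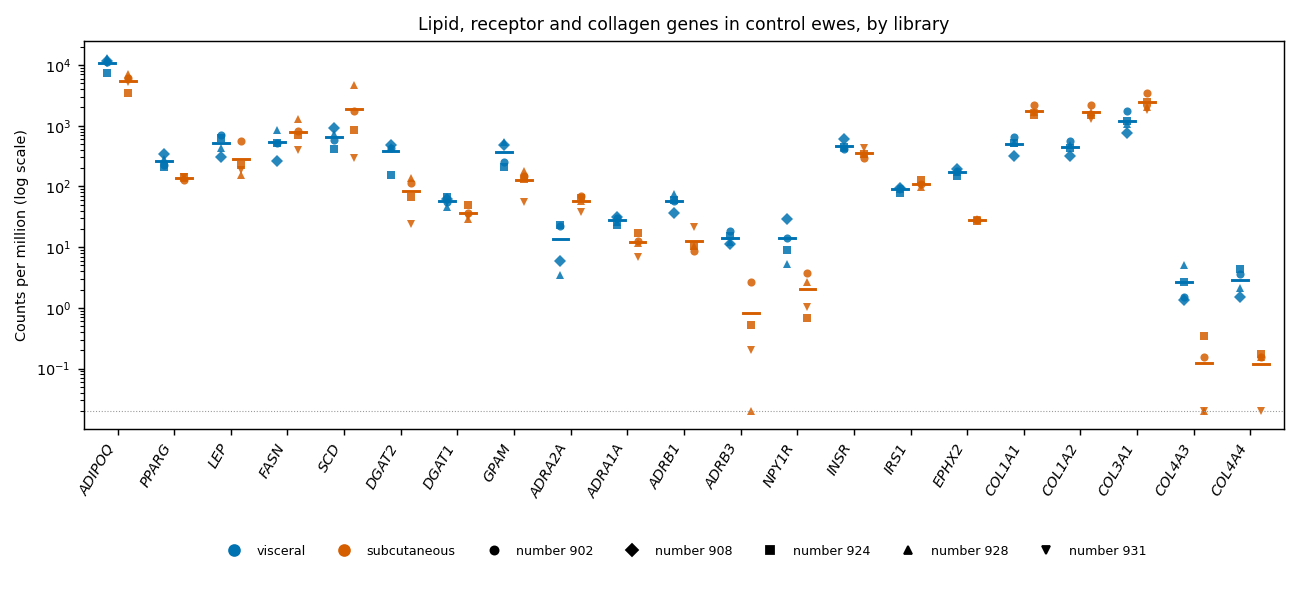
Expression in CPM (vertical axis, log scale) of 21 lipid, receptor and collagen genes in each library of control ewes, drawn as for the positional genes, with visceral fat in blue and subcutaneous fat in orange. PPARG, DGAT2, ADRB1, ADRB3 and EPHX2 lie higher and ADRA2A, COL1A1 and COL1A2 lower in every visceral library, and LEP, FASN and SCD overlap.

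Of 32 steroid hormone genes 2 were higher and 2 lower (12.5%, beside 13.3% over all genes), and of 33 insulin signalling and glucose uptake genes 5 were higher and 1 lower (18.2%). ESR1, the oestrogen receptor alpha, had 111 ± 25.2 against 109 ± 29.7 CPM (log2 0.02 ± 0.21, adjusted p = 0.966), and its sign turned under several settings. GREB1, an oestrogen-responsive gene, had 3.12, 0.381, 10.7 and 2.96 against 24.2, 44.1, 17.6 and 30.3 CPM (log2 -2.75 ± 0.63, adjusted p = 0.0173; 0.051 without visceral 902 and 0.0575 without visceral 928). NR3C1, the glucocorticoid receptor, had 245, 269, 246 and 292 against 322, 315, 324 and 351 CPM without overlap but was not called (log2 -0.32 ± 0.12, adjusted p = 0.101; 0.0357 with the animal as a block in limma voom and 0.0287 by DESeq2). HSD11B1, which regenerates cortisol, had 54.02, 40.04, 59.6 and 46.9 against 23.1, 27.2, 35.8 and 135 CPM (log2 -0.13 ± 0.48, adjusted p = 0.878). Subcutaneous 931 lay far above the rest of its group, and without it the log2 fold change was 0.81 (adjusted p = 0.0294). Within the 3 ewes with both depots it was 0.91 (adjusted p = 0.00956). TSC22D3, a glucocorticoid-responsive gene, was higher in visceral fat (374 ± 115 against 169 ± 60.6 CPM, adjusted p = 0.0207; 0.0629 without visceral 928 and 0.0532 without subcutaneous 924). INSR and IRS1, the insulin receptor and its main substrate, were not called (log2 0.41 ± 0.16 and -0.29 ± 0.13, adjusted p = 0.125 and 0.156; INSR 0.0414 with the block).

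Fibrous matrix was lower in visceral fat in part. Of 35 collagen chains 8 were lower and 5 higher (median -0.16, from -0.45 without visceral 902 to 0.02 without subcutaneous 902). COL1A1 and COL1A2, the chains of type I collagen, had 642, 314, 527 and 521 against 2210.0, 1528, 1671 and 1643 CPM and 557, 314, 434 and 479 against 2212, 1516, 1666 and 1280.3 CPM. The depots were far apart in both (log2 -1.82 ± 0.22 and -1.90 ± 0.22, adjusted p = 0.000855 and 0.00064). COL3A1, type III collagen, was lower by -1.03 ± 0.27 on the log2 scale (adjusted p = 0.0282), a call lost without visceral 908, 924 or 928 or subcutaneous 902 or 924 (adjusted p up to 0.0847) and with all 16 libraries (0.109). COL6A6 and COL6A3, chains of the beaded type VI filaments, had 42.5 ± 7.86 against 187 ± 22.6 and 1049 ± 215 against 2579 ± 464 CPM (SD, n = 4; adjusted p = 3.52e-05 and 0.0022). COL4A3 and COL4A4, chains of specialised basement membranes whose genes lie 288 bases apart on chromosome 2, were higher at low levels (2.65 ± 1.73 against 0.125 ± 0.164 and 2.90 ± 1.30 against 0.121 ± 0.0811 CPM; log2 4.24 ± 0.82 and 4.37 ± 0.65). MMP2, a collagen-degrading protease, had 199, 185, 325 and 260.3 against 520.1, 528, 1372 and 1555 CPM, with subcutaneous 928 and 931 well above 902 and 924 (log2 -2.03 ± 0.37, adjusted p = 0.00655). Of 65 matrix glycoproteins and proteoglycans 10 were higher and 4 lower (21.5%, beside 13.3% over all genes). EFEMP1, a fibulin of elastic fibres, SMOC1, a calcium-binding matrix protein, and BGN, biglycan, were higher, with log2 fold changes of 1.69 ± 0.17, 1.43 ± 0.21 and 1.34 ± 0.22 (adjusted p = 0.000274, 0.00222 and 0.00359). GSN, gelsolin, which cuts actin filaments, had the largest fall in CPM among genes with a symbol, from 6437 ± 685 in subcutaneous to 3544 ± 905 in visceral fat (adjusted p = 0.017; 0.0507 without visceral 908 and 0.0532 without visceral 928).

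Markers of stromal and precursor cells were lower in 6 of 32 cases and higher in 2 (25.0% called, beside 13.3% over all genes, median -0.33). SFRP4, a secreted Wnt antagonist, had 1.69, 2.76, 1.72 and 2.55 against 72.9, 31.3, 38.9 and 23.3 CPM, and GREM1, a secreted antagonist of bone morphogenetic proteins, 1.07, 2.002, 0.687 and 0.411 against 33.8, 30.6, 9.74 and 13.9 CPM. Every subcutaneous value was several times every visceral one (log2 -4.25 ± 0.37 and -4.41 ± 0.53, adjusted p = 0.000135 and 0.000825). SFRP5, the related Wnt antagonist of fat cells, went the other way (452, 271, 329 and 302 against 209, 128, 101 and 65.7 CPM, adjusted p = 0.0132). LGR5, the R-spondin receptor of stem cells, had 0 counts in visceral fat and 2.62, 2.94, 7.22 and 2.25 CPM in subcutaneous fat. NT5E, the surface enzyme CD73 of mesenchymal cells, and CD34, a marker of fat precursors and vessels, were lower by -2.73 and -0.83 on the log2 scale (adjusted p = 0.000636 and 0.0114). KIT, the stem cell factor receptor, was lower too (log2 -2.08, adjusted p = 0.000966). SFRP5, LGR5 and KIT were not among the 32 stromal and precursor markers and came from other lists. In the insulin-like growth factor list, 3 of 17 were higher and 4 lower. STC2, a secreted inhibitor of the protease PAPPA, had 1.25, 0.381, 0.945 and 0 against 7.55, 10.4, 14.1 and 16.8 CPM, and PAPPA2, a related protease, 0.535, 0.858, 0.773 and 0.658 against 6.32, 10.2, 12.9 and 2.25 CPM (adjusted p = 0.00236 and 0.00223).

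Called markers of blood vessels were mostly higher and those of lymph vessels lower in visceral fat. Of 30 endothelial markers 7 were higher in visceral fat and 2 lower, and of 11 lymphatic markers 0 were higher and 5 lower (medians 0.20 and -0.80). Without 1 library the endothelial median ranged from 0.08 (visceral 924 or subcutaneous 931) to 0.32 (visceral 908), and the lymphatic one reached -1.22 (visceral 902). KDR and FLT1, receptors for vascular endothelial growth factor, had 490.4, 551, 409 and 506 against 253, 189, 239 and 256 and 181, 196, 218 and 216 against 121, 74.9, 98.6 and 80.4 CPM. Their ligand VEGFA had 244, 319, 249 and 270.5 against 68.4, 78.9, 109 and 167 CPM. None of the 3 overlapped, with folds of 2.09, 2.16 and 2.56 (adjusted p = 0.00173, 0.0022 and 0.0069). SELE, the E-selectin of inflamed endothelium, had 1 count in visceral fat and 3.24, 1.73, 3.93 and 1.23 CPM in subcutaneous fat (adjusted p = 0.00121). PROX1, the master factor of lymphatic endothelium, had 9.90, 5.53, 13.5 and 14.6 against 23.6, 32.5, 20.4 and 48.3 CPM, and FLT4, the lymphatic growth factor receptor, 9.72, 4.58, 9.19 and 11.9 against 20.97, 22.5, 16.2 and 38.7 CPM. CCL21, a chemokine of lymphatic vessels, had 3.57, 2.29, 2.15 and 5.59 against 13.9, 10.03, 10.2 and 30.1 CPM. Subcutaneous 931 was highest in all 3, and the depots did not overlap (log2 -1.51 ± 0.33, -1.46 ± 0.32 and -2.22 ± 0.43, adjusted p = 0.0149, 0.0151 and 0.00837). The summed lymphatic markers did overlap, at 81.8 to 131 CPM against 114 to 199.8 CPM. LYVE1 and MMRN1, which are in that sum, were not called (log2 -0.28 and 0.11, adjusted p = 0.304 and 0.833). Among blood vessel markers PECAM1, CDH5 and VWF were not called (log2 0.04, 0.55 and 0.39, adjusted p = 0.903, 0.0665 and 0.197). Smooth muscle and pericyte genes had 8 of 30 higher and 0 lower (median 0.59, 0.39 without visceral 902), SYNM, the filament protein synemin, among them (431 ± 46.05 against 184 ± 29.9 CPM, adjusted p = 0.000855).

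Of 26 macrophage markers 2 were higher and 1 lower (11.5%, near the share over all genes), and of 22 lymphocyte and plasma cell markers 0 were higher and 2 lower (9.09%). Among the 26 macrophage markers 17 estimates were lower and 9 higher (median -0.10), and the 1 called lower was GPNMB (log2 -1.29). CD68, a lysosomal protein of macrophages, and CD3E, a chain of the T cell receptor complex, had 47.5 ± 8.04 against 43.6 ± 22.9 and 3.67 ± 1.63 against 4.68 ± 1.94 CPM (adjusted p = 0.809 and 0.625). For CD68 the block on the 3 ewes gave a log2 fold change of 0.67 (adjusted p = 0.0167), and without subcutaneous 924 the sign turned. FOLR2 and MRC1, markers of resident macrophages, were higher in visceral fat (13.3 ± 3.48 against 4.09 ± 1.07 and 418 ± 115 against 232 ± 40.1 CPM, adjusted p = 0.00397 and 0.0206), and MRC1 missed the threshold without visceral 928 or subcutaneous 924 (adjusted p = 0.0601 and 0.0558) and with all 16 libraries (0.134). JCHAIN, which joins secreted antibodies, had 12.4, 10.01, 8.42 and 15.5 against 179, 111, 22.8 and 29.5 CPM, and BLK, a kinase of B cells, 0.802, 0.763, 1.55 and 1.40 against 3.39, 14.5, 3.77 and 5.73 CPM. In JCHAIN subcutaneous 902 and 924 stood far above 928 and 931, which were themselves above all visceral libraries (log2 -2.89 ± 0.58, adjusted p = 0.0104). Of 104 gene segments of antigen receptors in the table, 8 were tested, 6 were lower in visceral fat and 0 higher. Together the segments held 23.98, 23.8, 15.6 and 56.4 CPM in visceral and 616, 298, 208 and 144 CPM in subcutaneous libraries, highest again in subcutaneous 902. A gene without a symbol on chromosome 18 (70581656 to 70583252), LOC114109061, had 13.5, 7.15, 2.66 and 4.93 against 2327, 1318, 397 and 91.1 CPM, again highest in subcutaneous 902 (log2 -7.20 ± 0.98, adjusted p = 0.0015).

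Nerve-related genes had 5 of 17 higher and 2 lower (median 0.41, 0.27 without visceral 924 and 0.65 without subcutaneous 924). SLIT2, a secreted guidance cue for axons and vessels, had 219, 168, 213 and 241 against 31.1, 9.34, 8.95 and 12.1 CPM, and RET, the receptor for glial growth factors, 74.3, 53.8, 103 and 50.97 against 17.1, 24.04, 13.5 and 15.96 CPM. Neither overlapped, with folds of 13.6 and 3.99 (adjusted p = 0.000231 and 0.0011). TH, tyrosine hydroxylase of catecholamine synthesis, was lower in visceral fat, with 5.62, 3.91, 2.23 and 8.30 against 18.96, 21.3, 38.9 and 19.04 CPM (log2 -2.29 ± 0.38, adjusted p = 0.00423). Of 60 axon guidance genes 9 were higher and 3 lower. The skeletal muscle list had 4 of 12 lower and 1 higher, and TNNT3, a troponin of fast muscle, had 12.9, 10.01, 14.5 and 5.67 against 26.5, 72.5, 55.4 and 39.1 CPM (adjusted p = 0.00333), beside the muscle marker sums given above, whose part in other falls was not tested.

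Further called genes had roles outside these groups. EPHX2, the epoxide hydrolase that breaks down signalling lipids, had 181, 197, 146 and 175 against 27.6, 26.99, 29.2 and 28.5 CPM, with little spread in either depot (fold 6.23, log2 2.64 ± 0.13, adjusted p = 2.2e-06). TF, the iron carrier transferrin, had 223, 361, 214 and 205 against 34.99, 34.4, 31.7 and 34.6 CPM (fold 7.39, adjusted p = 1.78e-05). All 4 visceral values of TF exceeded 204 CPM and all 4 subcutaneous ones lay under 35.1 CPM. C4BPA, an inhibitor of complement, had 44.2, 45.9, 30.1 and 14.4 against 2.47, 3.63, 0.471 and 1.02 CPM (adjusted p = 0.000991). PTGFR, the receptor for prostaglandin F2 alpha, the hormone injected into every ewe, had 0.357, 0.0953, 0.773 and 0.329 against 7.09, 6.05, 8.64 and 1.84 CPM (log2 -3.87 ± 0.60, adjusted p = 0.00297), low in all libraries and lower in each visceral one. HPGD, which inactivates prostaglandins, was lower too (log2 -2.46 ± 0.32, adjusted p = 0.00117). SPTBN1, the membrane skeleton protein beta-spectrin, rose from 5282 ± 559 to 9120.2 ± 549.7 CPM (SD, n = 4; adjusted p = 0.00781). Heat shock chaperones had 12 of 28 higher and 2 lower (median 0.50), with HSP90AA1 at 2301 ± 330.1 against 908 ± 236 CPM and HSPA8 at 239 ± 53.5 against 98.5 ± 23.8 CPM (adjusted p = 0.00295 and 0.00323). Immediate early genes, which respond within minutes to handling or signals, had 5 of 28 higher and 1 lower (21.4%, beside 13.3% over all genes). Of these, EGR1 had 34.9, 131, 63.7 and 63.1 against 14.6, 24.6, 18.1 and 17.4 CPM (adjusted p = 0.00572; 0.0813 with all 16 libraries in the fit). The labels give no order or delay of sampling of the depots, so it cannot be told apart from depot.

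Interferon-stimulated genes had 0 of 28 called by edgeR (5 at an unadjusted p under 0.05, 1 by DESeq2) and cell cycle genes 0 of 21 (2 at an unadjusted p under 0.05, 0 by DESeq2). Respiratory chain subunits had 3 of 58 higher and 0 lower, cytosolic ribosomal proteins 5 of 79 higher and 0 lower, and cholesterol genes 3 of 31 higher and 0 lower. These were 5.17, 6.33 and 9.68%, beside 7.17% called higher and 13.3% called in all over all genes. Most estimates were above 0 (53 of 58, 64 of 79 and 21 of 31), with medians of 0.30, 0.25 and 0.16 beside -0.01 over all genes. Without 1 library these medians ranged from 0.17 to 0.41, 0.14 to 0.41 and 0.06 to 0.21. Cytokine and NF-kappaB genes had 5 of 30 lower and 0 higher (16.7%, median -0.41) and circadian clock genes 3 of 22 lower and 0 higher (13.6%), beside 6.16% called lower over all genes.

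The same depots in BPA ewes share no library with the control comparison. There 1235 of 13782 genes tested were called (8.96%), 682 higher and 553 lower in visceral fat. Of the 1928 genes called in control ewes 1838 were tested in BPA ewes and 1753 (95.4%) had the same sign, as had 75.1% of all 13657 genes tested in both. The 680 genes called in the same direction in both sets were 35.3% of the control calls and 55.1% of the BPA calls, and 0 genes were called in opposite directions. By group, the control calls also called in the same direction in BPA ewes were 4 of 4 Iroquois genes, 10 of 16 limb and body wall factors, 9 of 14 heat shock chaperones, 1 of 12 adipocyte genes and 0 of 5 lymphatic markers. Called there or not, 4, 15, 14, 11 and 5 of these control calls, in that order, had the same sign in BPA ewes. IRX2, NKX3-2, SLIT2, TF and EPHX2 had log2 fold changes of -10.66, 8.57, 4.15, 2.74 and 2.19 in BPA ewes, all called. COL1A1, TH, PROX1 and JCHAIN, all lower in visceral fat of control ewes, had 0.33, 0.02, -0.06 and -0.54 in BPA ewes (adjusted p = 0.747, 0.988, 0.926 and 0.63). The difference between the depot effects was called for 0 of 14793 genes by edgeR (0.0%; 919 at an unadjusted p under 0.05, smallest adjusted p 0.65), for 11 by DESeq2 and, with the animal number as a block in limma voom, for 0 (961 at an unadjusted p under 0.05). For COL1A1 that difference was -2.15 on the log2 scale (edgeR unadjusted p = 0.00501, adjusted p = 0.65). The BPA count ranged from 369 without subcutaneous BPA 922 to 2206 without visceral BPA 977. With the block in limma voom it was 973. In BPA ewes only the numbers 918 and 977 occur in both depots.

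**Figure D5:**
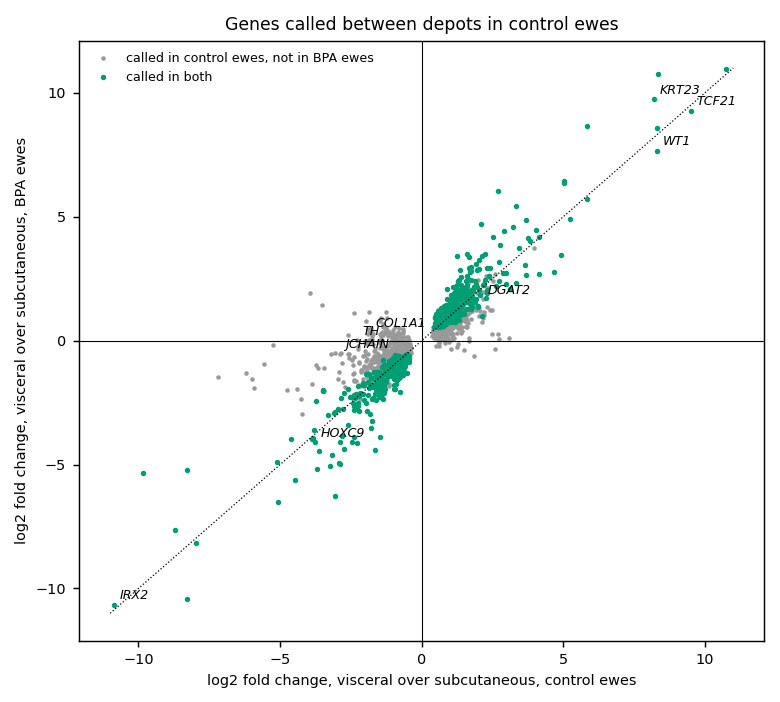
Log2 fold change of visceral over subcutaneous fat in control ewes (horizontal axis) and in BPA ewes (vertical axis) for the 1838 genes called in control ewes and tested in both, with the line of equal change dotted. Green points are the 680 genes called in the same direction in both sets and grey points are the rest, with COL1A1, TH and JCHAIN near 0 on the vertical axis.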

How the data were processed

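Per the labels' protocols, RNA was depleted of ribosomal RNA and a low-input kit was used for the libraries. The submitters' processing notes name STAR 2.6.0c, featureCounts of Subread 1.6.1, FastQC 0.11.5 and MultiQC 0.9. The authors deposited 1 table of gene counts for 28524 genes and 16 libraries. Its values are whole numbers with differing totals and were treated as raw counts, although its name calls them normalized. No source used here gives the genome build, the annotation or the use of strand in counting. Gene types and 406 symbols for LOC identifiers came from the ARS-UI_Ramb_v3.0 RefSeq gene table, which matched 22717 genes and left 5807 unmatched. Coordinates are those of the deposited table, with chromosomes named by the majority of matched genes (at least 94.8% for each of 27 sequences).

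The 8 control libraries were filtered with filterByExpr (default minimum counts of 10 per library and 15 overall), scaled by TMM and tested by edgeR 4.0.16 (quasi-likelihood F test, R 4.3.3), two-sided, with Benjamini-Hochberg adjustment and a threshold of 0.05. CPM are counts per M of the TMM-scaled total (M, 1e+06 counts), given per library or as mean ± SD. CPM are not divided by gene length, so levels were compared within a gene only. On simulated data with 14258 genes tested, 56.0% of 100 genes changed 2-fold and 94.8% of 97 genes changed 4-fold were recovered, and 4.52% of calls were false. Only 200 genes were given a change there, beside 1928 called in the data, and libraries were drawn without pairing by animal. These rates are therefore not those of the depot comparison. The BPA ewes were fitted in the same way, and the difference between the depot effects on all 16 libraries. Library measures were compared with exact permutation tests (scipy 1.17.1). Floors and intervals (95%) cover counting error only.

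The labels do not say that a number is an animal. Across genes, the deviations from the group mean of the 3 control numbers found in both depots correlated at 0.29, 0.41 and 0.34, and each visceral library with such a number matched its own number best, so they were taken as pairs. The remaining libraries are samples of 1 group, and p-values measure the spread between these samples. Alternatives were DESeq2 1.42.0, its size factors, no filter, a filter of 50 counts in 4 libraries, a block on the animal (edgeR on the 6 paired libraries, limma 3.58.1 voom on all 8), limma voom without a block, a fit of all 16 libraries, thinning to the lowest total, omission of genes under 200 bases, a test against a 2-fold change, a threshold of 0.01 and omission of each library. For the BPA ewes and the difference between depot effects, limma voom with and without the block was added after seeing the data.

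The comparison and the 51 gene lists were chosen with earlier results of these data known. Genes are named by a rule: the 10 highest and 10 lowest called fold changes without overlap, the 8 largest CPM differences in each direction, up to 5 called members of each list with the smallest p, and 22 genes whatever their result (PPARG, ADIPOQ, LEP, FASN, SCD, UCP1, ESR1, NR3C1, HSD11B1, INSR, IRS1, ADRB3, CD68, CD3E, COL1A1, WT1, TBX15, EN1, MSLN, HOXC8 and HOXC10, and 1 that is not reported here). The text gives part of them. Further called list members, the tested HOX genes, KRT18, the vessel markers that were not called, the antigen receptor segments and the genes without a symbol were named after their values were seen.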

Additional observations from a re-analysis of the deposited data

Results flagged for a closer look

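In each group of 4 libraries the highest or lowest value was checked for a wide gap to the others, by Dixon's test at the 95% level, over 274 groups with at least 40 counts. Of these 17 passed, and chance alone flags about 1 in 20.

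Subcutaneous 931 lay apart in HSD11B1 at 135 CPM (others 23.1 to 35.8) and in ADRB1 at 21.3 CPM (others 8.79 to 10.6). The same library lay apart in the summed lymphatic endothelial markers at 199.8 CPM (others 114 to 121), in the summed cartilage markers at 1.23 CPM (others 2.62 to 2.83) and in the share of counts in genes under 200 bases at 0.459% (others 0.355 to 0.365%). Subcutaneous 928 lay above its group in TBX15 at 38.0 CPM (others 29.4 to 30.1), in LGR5 at 7.22 CPM (others 2.25 to 2.94) and in TH at 38.9 CPM (others 18.96 to 21.3). Subcutaneous 902 lay above its group in SLIT2 at 31.1 CPM (others 8.95 to 12.1), in KRT8 at 4.78 CPM (others 2.20 to 2.25) and in PC at 29.4 CPM (others 14.5 to 16.6). Among visceral libraries, 908 was high in TF at 361 CPM (others 205 to 223), in INSR at 597 CPM (others 420.0 to 442) and in MLXIPL at 71.2 CPM (others 53.2 to 56.0), 924 was high in HOXB6 at 166 CPM (others 60.4 to 75.8) and low in TBX15 at 2.32 CPM (others 3.66 to 3.91) and 928 was high in BGN at 213 CPM (others 152 to 160.1).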

How the results depend on the processing

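In the control comparison, 0 of the 1928 called genes changed sign under any alternative in which it was called. The count was 1926 with DESeq2 size factors, 1985 without a filter, 1720 with the 50-count filter, 1832 by limma voom without a block, 1501 with all 16 libraries, 1887 without genes under 200 bases and 2772 by DESeq2. With the replicate block it was 2616 on the 6 paired libraries and 3522 by limma voom. It fell to 563 at a threshold of 0.01 and to 145 (60 higher, 85 lower) in the test against a 2-fold change, both stricter by construction, and ranged from 1043 to 1754 when 1 library was left out. ADRA2B, GPNMB, LYVE1, MMRN1, PECAM1, CDH5 and VWF are left out of the counts and checks of named genes that follow. Of 123 called genes named, 105 were called in every omission of a library, 15 lost the call in at least 1, and COL4A3, COL4A4 and KRT23 were called in each omission in which they were tested (4, 5 and 5 of 8). The fit of all 16 libraries ended 11 of these calls, thinning 3, limma voom without a block 2 (NPY1R, adjusted p = 0.0654, and PRDM16) and the 50-count filter 1. The replicate block called LEP, FASN, SCD, CD68, HSD11B1 and HOXB6 and lost PRDM16 on the 6 paired libraries, and called LEP (adjusted p = 0.0285), NR3C1 (0.0357) and INSR (0.0414) in limma voom, and changed no other call of a named gene. DESeq2 called NR3C1 (adjusted p = 0.0287) and changed no other call of a named gene.

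Signs turned in 4 named genes, 0 of them called. ESR1 was at -0.0124 with the 50-count filter, -0.0109 after thinning, -0.155 with the replicate block on 6 libraries and -0.0306 with it in limma voom. It ranged from -0.144 (without visceral 928) to 0.196 when 1 library was left out, with -0.121 without subcutaneous 931. HSD11B1 was at 0.905 with the replicate block on 6 libraries, 0.484 with it in limma voom, 0.294 by limma voom without it, and from -0.404 to 0.813 (without subcutaneous 931) when 1 library was left out. CD68 ranged from -0.0656 (without subcutaneous 924) to 0.556. HOXB6 was at 0.785 with the replicate block on 6 libraries (adjusted p = 0.0309), 0.415 with it in limma voom, 0.23 by limma voom without it, and from -0.494 (without visceral 924) to 0.65 (without subcutaneous 931) when 1 library was left out, with 0.11, 0.0789 and 0.0369 without visceral 902, 908 and 928. The BPA count was 2197 by DESeq2 and from 369 to 2206 when 1 library was left out, and the difference between depot effects went from 0 genes by edgeR to 11 by DESeq2. With the replicate block in limma voom, a setting chosen after seeing the data, the BPA count was 973 (1045 without it) and the difference was called for 0 genes (0 without it). The cause was not tested.

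Subcutaneous libraries held 4.74 to 6.22 M counts, so genes near 1 CPM rest on few counts there, and depth cannot be told apart from depot. Thinning evens out the totals only, and not whatever else went with depth.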
